A study of Rattus norvegicus with 6 samples.

Results

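The miR-28 family comprises the mature miRNAs of 3 precursors, miR-28, miR-151 and miR-708, whose hairpins each give a mature strand from the 5′ side (5p) and one from the 3′ side (3p). All 6 arms, rno-miR-28-5p, rno-miR-28-3p, rno-miR-151-5p, rno-miR-151-3p, rno-miR-708-5p and rno-miR-708-3p, were found among the 649 mature miRNAs listed for each sample. They were chosen by name as a repeat-derived family, after BDNF and control values of these same libraries were known, among them those of miR-151. Differences between BDNF and control are therefore given as a description with their errors, and no support is drawn from the number of members that pass a threshold in that contrast. Small RNA was sequenced from primary cortical neurons of embryonic day 18 Sprague-Dawley rats, grown as dissociated cultures for 7 days in vitro according to the sample labels, or 6 according to a figure legend of the study. The 3 BDNF samples had received 100 ng/ml brain-derived neurotrophic factor for 20 min and the 3 control samples the vehicle, 0.1% BSA, and both groups are numbered as replicates 1 to 3. Such cultures are made from cortical tissue and can hold other cells beside neurons, whose division was blocked in the study's cortical cultures with fluorodeoxyuridine and uridine. The study asked whether brief BDNF stimulation, by way of Dicer and its partner TRBP, alters the levels of miRNAs and the choice between their arms. It described the effects on levels as modest and reported no change in strand choice. It also reported altered proportions of isomiRs, variants of a miRNA that differ in length.

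Dicer cuts a hairpin precursor into a short duplex of both arms, and an Argonaute protein keeps 1 strand as the guide, whereas the other is mostly degraded. Bases 2 to 8 of the guide, the seed, determine most of its pairing with target mRNAs. The hairpins of miR-28 and miR-151 come from LINE-2 elements, ancient transposable repeats, and related insertions gave rise to miRNAs with similar sequence at separate loci. In the RefSeq gene table of assembly GRCr8, the miR-28 gene lies within the span of Lpp, which encodes a LIM domain protein of cell adhesion sites. The miR-151 gene lies within Ptk2, which encodes focal adhesion kinase, and the miR-708 gene within Tenm4, which encodes a transmembrane teneurin.

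The mature sequences show how the family is related and why its arms are distinct miRNAs. They were taken from RefSeq (GRCr8), which matched 4 of the 6 members, and are written 5′ to 3′ with the seed in capitals. The miR-28 arms lie on the minus strand at chr11:89480303-89480324 (5p) and chr11:89480263-89480284 (3p), and the miR-708 arms on the plus strand at chr1:160011168-160011190 (5p) and chr1:160011214-160011235 (3p).
rno-miR-28-5p: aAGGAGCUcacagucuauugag
rno-miR-708-5p: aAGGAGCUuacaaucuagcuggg
rno-miR-28-3p: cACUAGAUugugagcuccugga
rno-miR-708-3p: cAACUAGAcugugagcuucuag

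The 5p arms of miR-28 and miR-708 shared the seed AGGAGCU and were identical at 16 of 22 aligned bases. Counted from the 5′ end of miR-28-5p, the substitutions toward miR-708-5p were C9U, G13A, U18G, U19C, G20U and A21G, so that all of them lay behind the seed. No other listed miRNA with a RefSeq sequence carried this seed. Sharing a seed with another precursor was not rare, since 158 of the 582 listed miRNAs with a sequence (27.1%) did so. The 3p arms were closer over their length, with 17 of 21 aligned bases identical, but miR-708-3p has 1 additional base at its 5′ end. The seeds were thereby shifted to ACUAGAU and AACUAGA, with a common run of 6 bases, and neither occurred in another of the listed miRNAs that have a RefSeq sequence. The longest stretch of miR-28-5p complementary to its own 3p arm was 11 bases, whereas the longest stretch complementary to miR-708-3p was 13 bases. Among the 582 listed miRNAs with a sequence, and allowing shifts of up to 3 bases, the nearest to each of these 5p arms differed by 6 bases and the nearest to each of these 3p arms by 4 bases. The arms of miR-151 did not enter these comparisons, so that their distance to the other members was not measured.

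The libraries held 10374120 to 12533029 counts each, and the family took between 0.523% and 0.688% of them. Levels are given in RPM, reads per 1000000 counts of a sample, and normalized RPM were in addition divided by edgeR's TMM factor (0.928 to 1.085), which corrects for differences in library composition. Of the miRNAs fixed as markers, the 4 neuronal ones summed to between 334964 and 411930 RPM per sample, and the 2 of the oligodendrocyte lineage to between 29.7 and 35.5 RPM. The 3 blood-lineage markers listed gave at most 7.18 RPM, whereas the 2 markers of astrocytes and microglia gave between 5587 and 7495 RPM, nearly all from miR-21-5p. All 6 members passed the filter of the study, a mean of at least 10 RPM in 1 condition, together with 330 other miRNAs.

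The 6 arms spanned a wide range of levels in cortical neurons. MiR-708-3p was the most abundant, at 4051, 2852 and 2330 RPM in control replicates 1 to 3 and 3812, 3481 and 2676 RPM in the BDNF replicates. It ranked 39th among all 649 miRNAs by its mean control level of 3078 ± 882 RPM (SD, n = 3). MiR-151-3p followed with 1642, 1495 and 1646 RPM in control and 1604, 1713 and 1834 RPM in BDNF samples, and ranked 55th. Every sample of miR-708-3p lay above every sample of miR-151-3p, and these in turn lay above all samples of miR-708-5p. The latter had 994, 1112 and 1066 RPM in control and 916, 1070 and 1003 RPM in BDNF samples. The remaining arms were far rarer. MiR-28-3p was found at 94.7, 73.6 and 81.3 RPM in control and 84.7, 71.4 and 71.8 RPM in BDNF samples, above all samples of the next, miR-151-5p. MiR-151-5p had 62.7, 54.0 and 57.9 RPM in control samples but 45.2, 40.9 and 47.9 RPM in BDNF samples. MiR-28-5p was the rarest, with 37.8, 48.4 and 49.4 RPM in control and 41.8, 37.6 and 39.6 RPM in BDNF samples. MiR-151-5p and miR-28-5p did not overlap in control samples, whereas their ranges overlapped in BDNF samples when different libraries were compared. Within each library of either condition miR-151-5p was above miR-28-5p. Even miR-28-5p was counted 395 to 607 times and miR-151-5p 461 to 677 times per sample.

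**Figure D1:**
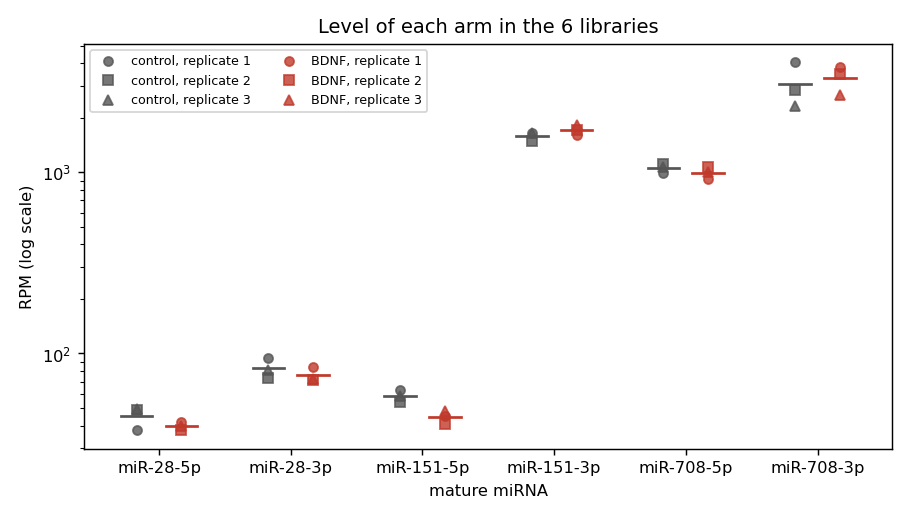
RPM (log scale) of each of the 6 mature miRNAs, with control libraries in grey, BDNF libraries in red, a symbol per replicate number and a bar at the mean of 3. The arms of miR-708 and miR-151-3p lie between 916 and 4051 RPM, and the other arms between 37.6 and 94.7 RPM.

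The family was thus made up mainly of 3p arms. MiR-708-3p contributed 44.6% to 58.9% of its reads, miR-151-3p 23.9% to 32.3% and miR-708-5p 14.1% to 20.4%, whereas none of the others exceeded 1.55%. Reads with the seed shared by miR-28-5p and miR-708-5p summed to between 958 and 1160 RPM. MiR-708-5p supplied 95.6% to 96.6% of them, and miR-28-5p added little to the pool of this seed.

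In all 3 precursors and all 6 samples the 3p arm was read more often than the 5p arm, but to different degrees. MiR-151 was the most uneven, with 26.2, 27.7 and 28.4 reads of miR-151-3p for each read of miR-151-5p in control replicates 1 to 3. MiR-708 had 4.07, 2.57 and 2.19 and miR-28 had 2.50, 1.52 and 1.65 such reads in the same samples. On the log2 scale the 5p/3p ratio in control was -4.78 ± 0.06 for miR-151, -1.50 ± 0.47 for miR-708 and -0.88 ± 0.39 for miR-28 (SD, n = 3 each). Within single libraries the ratio of miR-28 exceeded that of miR-151 by 3.39 to 4.46 log2 units and that of miR-708 by 0.41 to 1.04. The order of the precursors was hence the same in each library, although the ranges of miR-28 and miR-708 overlapped when different libraries were compared.

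**Figure D2:**
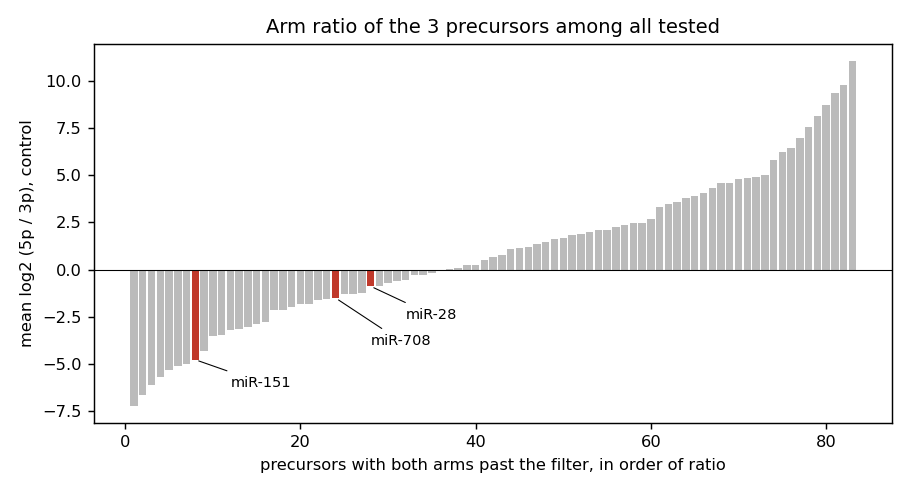
Mean log2 5p/3p count ratio in the 3 control samples for the 83 precursors with both arms past the filter, in ascending order, with the family in red. The ratios of miR-151, miR-708 and miR-28 are -4.78, -1.50 and -0.88, the 8th, 24th and 28th from the lowest.

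Both arms passed the filter for 83 precursors, of which 36 had more 3p and 47 more 5p reads in control samples, with a median log2 ratio of 0.66. The first base of an arm is among the features known to influence which strand Argonaute keeps. In miR-28 and miR-708 the abundant arm starts with C and the rare arm with A. This combination was found in 4 of the 70 precursors with both sequences (5.71%), including these 2. Among the same 70 precursors the more abundant arm started with U in 32 cases, with A in 18, with C in 10 and with G in 10. The rarer arm started most often with A, in 30 cases (42.9%), with C in 23, with U in 15 and with G in 2.

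A comparison list of other miRNAs known to lie in introns of protein-coding genes is given for reference. Of its 72 listed arms 48 passed the filter, and 5 of the 10 precursors with both arms had more 3p reads. The median log2 5p/3p ratio of these 10 was -0.12, against 0.66 for all 83.

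Levels of the family also differed between replicate numbers. Samples of both conditions that carry the same number deviated together from their group means (correlation across miRNAs of 0.81, 0.49 and 0.89 for numbers 1 to 3), so a number stands for a shared source of variation. MiR-708-3p showed the widest spread, with mean normalized RPM of 4094, 3288 and 2312 in numbers 1, 2 and 3 (n = 2 each). Both samples of number 1 lay above both of number 2, and these above both of number 3. This 1.77-fold range passed the test, with an adjusted P-value of 0.00074 in edgeR's quasi-likelihood test for the replicate number with condition as a covariate. MiR-28-3p ranged from 93.3 in number 1 to 75.4 and 70.7 normalized RPM in numbers 2 and 3, with an adjusted P-value of 0.019 in edgeR. Without control replicate 3, BDNF replicate 1 or BDNF replicate 3 the adjusted P-value of miR-28-3p rose to 0.098, 0.076 and 0.13, and with library size alone as normalization to 0.078. MiR-708-5p was highest in number 2, at 1134 normalized RPM against 994 and 955, and its adjusted P-value of 0.055 in edgeR just missed the threshold. It fell to 0.049 with DESeq2's size factors and to 0.031 in DESeq2. In edgeR it rose to 0.15 with library size alone, to 0.097 without a filter on low counts and to 0.078 with a filter of 100 RPM. When single libraries were left out, the range of miR-708-5p over replicate numbers was 0.23 to 0.26 log2 units. MiR-28-5p (adjusted P-value 0.77), miR-151-5p (0.23) and miR-151-3p (0.69) did not pass in edgeR. MiR-151-3p was the most even member, at 1691, 1667 and 1606 normalized RPM.

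Hence 2 of the 6 members, both 3p arms, differed between replicate numbers at an adjusted P-value below 0.05, whereas 48.2% of all 336 miRNAs tested did so. The share among the members was not above this background. In the intronic comparison list 18 of 48 arms passed (37.5%). The summed markers of astrocytes and microglia also varied with the number. They were at 7296 and 7495 RPM (control and BDNF) in number 1, 6625 and 7044 in number 2, and 5587 and 5616 in number 3. The 2 mural cell markers gave 103.2 and 98.4, 56.7 and 60.9, and 71.6 and 69.8 RPM, nearly all from miR-143-3p, since miR-145-5p stayed at or below 0.482 RPM. The neuronal markers gave 384808 and 411930 RPM in number 1, 392398 and 396725 in number 2, and 334964 and 376521 in number 3. Most of each sum came from miR-9a-5p. This marker had 301300 and 331100 RPM in number 1, 307500 and 301700 in number 2, and 249600 and 282000 in number 3. MiR-124-3p, miR-128-3p and miR-138-5p were instead each higher in number 3 than in number 1 in both conditions. Against number 2, only miR-138-5p was higher in number 3 in both conditions. The part of all these markers in the spread of miR-708-3p was not tested. Fewer cells of a type cannot be told apart from less RNA per cell in these bulk samples.

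**Figure D3:**
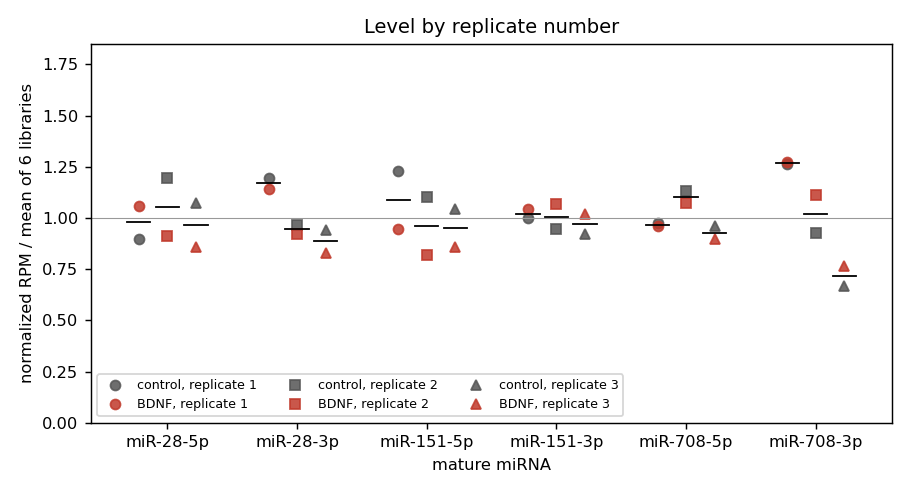
Normalized RPM of each member divided by its mean over the 6 libraries, grouped by replicate number (symbols), with control in grey, BDNF in red and a black bar at the mean of both. For miR-708-3p the numbers are separate, with means of 4094, 3288 and 2312 normalized RPM, whereas those of miR-151-3p nearly coincide.

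The arms of miR-708 also differed from each other across replicate numbers. The log2 5p/3p ratio of miR-708 was -2.04 in number 1, -1.53 in number 2 and -1.27 in number 3 (n = 2 each), with an adjusted P-value of 0.022 for the replicate number in limma. It was the 3rd smallest P-value of 83 precursors, of which 16.9% passed. The 5p share of miR-708 reads in control samples was accordingly 19.7% in replicate 1 (95% Wilson interval 19.4 to 20.1%), 28.05% in replicate 2 (27.7 to 28.4%) and 31.4% in replicate 3 (30.9 to 31.9%). These intervals cover counting error only. The call was lost when control replicate 1, control replicate 3, BDNF replicate 1 or BDNF replicate 3 was left out (adjusted P-values of 0.19, 0.081, 0.12 and 0.11 in limma). Neither miR-28 (adjusted P-value 0.23) nor miR-151 (0.60) passed in limma, so 1 of the 3 precursors did. For miR-28 the range over replicate numbers was 0.41 log2 units, and between 0.14 and 0.67 when single libraries were left out.

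Between conditions, the mean level of miR-151-5p was lower and that of miR-151-3p higher with BDNF. MiR-151-5p was at 63.2, 56.6 and 53.6 normalized RPM in control replicates 1 to 3 and at 48.7, 42.1 and 44.1 in the BDNF replicates. The conditions did not overlap, the BDNF samples being the lower ones, with BDNF/control ratios of 0.77, 0.74 and 0.82 for numbers 1 to 3. The fold change on the log2 scale was -0.36 (standard error 0.13, or 0.08 with the replicate number as a block). It ranked 12th in size among the 336 miRNAs. MiR-151-3p was at 1653, 1568 and 1522 normalized RPM in control and 1729, 1766 and 1690 in BDNF samples, again without overlap but on the higher side. The ratios were 1.05, 1.13 and 1.11 and the log2 fold change 0.13 (standard error 0.08, or 0.06 with the block). For miR-151-3p this separation depended on TMM, since in RPM without it the conditions overlapped and the ratios were 0.98, 1.15 and 1.11, whereas miR-151-5p did not overlap on either scale. The total of both arms was 1639 ± 71 normalized RPM in control and 1773 ± 37 in BDNF samples (SD, n = 3 each), and it too overlapped between conditions without TMM. The endothelial marker miR-126a-5p was also lower with BDNF, at 21.4, 18.9 and 20.4 RPM in control and 17.6, 15.5 and 16.9 RPM in BDNF samples, whereas the other endothelial marker, miR-126a-3p, had 79.5, 67.4 and 65.3 RPM in control and 80.0, 56.5 and 63.3 RPM in BDNF samples. The sum of both markers ranged from 85.7 to 100.9 RPM in control and from 72.0 to 97.6 RPM in BDNF samples, and their part in the level of miR-151-5p was not tested.

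The log2 5p/3p ratio of miR-151 was -4.71, -4.79 and -4.83 in control and -5.15, -5.39 and -5.26 in BDNF samples. The change of -0.49 (standard error 0.14, or 0.11 with the block) was the 4th largest in size of 83 precursors. It was between -0.60 and -0.43 in the 3 pairs. Expressed as a share, miR-151-5p made up 3.52 ± 0.14% of the miR-151 reads in control and 2.54 ± 0.21% in BDNF samples (SD, n = 3 each).

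**Figure D4:**
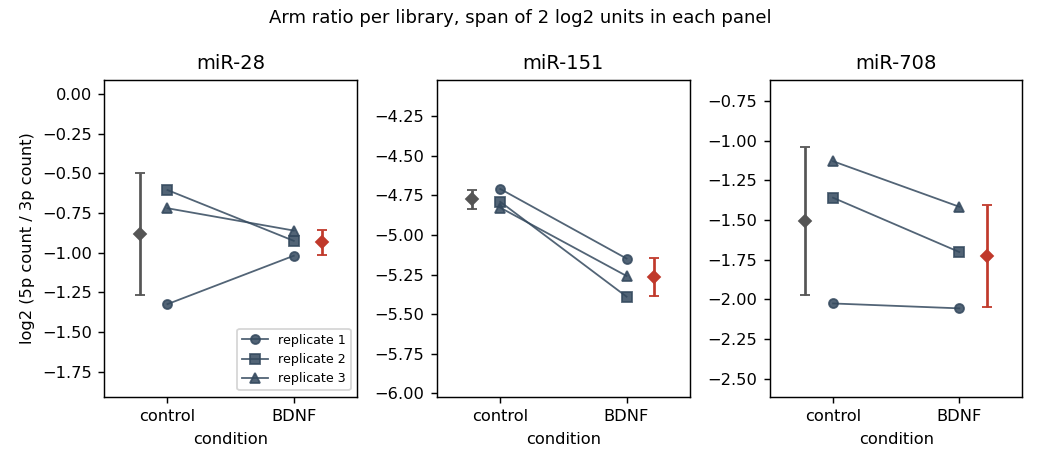
Log2 5p/3p count ratio of miR-28, miR-151 and miR-708 in control and BDNF samples, with lines joining the same replicate number and diamonds with bars for mean and SD (n = 3). The ratio of miR-151 is lower with BDNF in all pairs, from -4.78 to -5.27 on average, while the lines of miR-28 cross and those of miR-708 are set apart by number.

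The other precursors changed less than the replicates of a condition differed, a spread that includes the differences between replicate numbers. The log2 ratio of miR-708 was -1.72 ± 0.32 in BDNF samples, a change of -0.22 (standard error 0.25). The 3 pairs changed by -0.03, -0.34 and -0.29 (SD 0.17). With the replicate number as a block, the standard error of this change was 0.10. In fits without the block, the change was -0.48 without control replicate 1 and -0.37 without BDNF replicate 3. It was -0.15 without control replicate 2, -0.054 without BDNF replicate 1 and -0.032 without control replicate 3. For miR-28 the log2 ratio was -0.93 ± 0.08 in BDNF samples (SD, n = 3). This was a change of -0.05 (standard error 0.21, or 0.15 with the block), and the pairs changed by 0.31, -0.32 and -0.14. Among the single arms, miR-28-5p had a log2 fold change of -0.16 (standard error 0.16, or 0.13 with the block), with ratios of 1.18, 0.76 and 0.80. MiR-28-3p had a log2 fold change of -0.10 (standard error 0.17) and ratios of 0.96, 0.95 and 0.88, and miR-708-5p -0.06 (standard error 0.11) with ratios of 0.99, 0.95 and 0.94. MiR-708-3p had a log2 fold change of 0.14 (standard error 0.27), with ratios of 1.01, 1.20 and 1.14, or 0.94, 1.22 and 1.15 in RPM without TMM. With the replicate number as a block, the log2 fold change of miR-28-3p was -0.11 (standard error 0.08). That of miR-708-5p was -0.06 (standard error 0.06) and that of miR-708-3p 0.16 (standard error 0.07). In fits without the block, the sign of these 3 fold changes depended on single libraries. Leaving out a library also left its replicate number with a single condition. The sign turned for miR-28-3p without control replicate 1 (0.040) and for miR-708-5p without control replicate 2 (0.017). For miR-708-3p it turned without control replicate 3 (-0.053) or BDNF replicate 1 (-0.026).

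**Figure D5:**
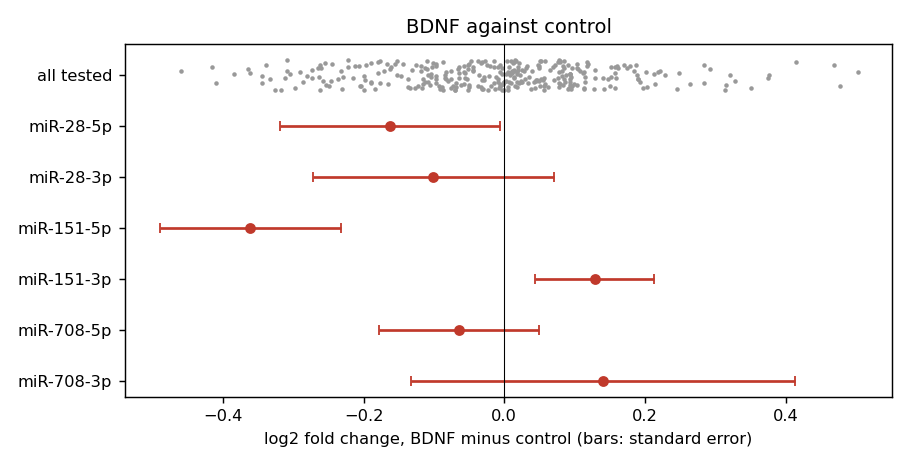
Log2 fold change (BDNF minus control) of each member with its standard error, and of all 336 miRNAs tested as grey points spread vertically for visibility. MiR-151-5p lies at -0.36 and miR-151-3p at 0.13, and the grey points range from -0.46 to 0.50.

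At an unadjusted P-value below 0.05, the threshold of the study, 1 of the 6 members was called, miR-151-5p, where 2.98% of all miRNAs were. With the replicate number as a block it was again miR-151-5p alone, and 20.5% of all miRNAs were called. In edgeR's quasi-likelihood test none of the 336 miRNAs had an adjusted P-value below 0.05, with or without the block, and 10 and 69 had an unadjusted one. DESeq2 gave 12 unadjusted and 0 adjusted calls without the block. The groups did not overlap for 2 of the 6 members, against 7.14% of all miRNAs, and 5 of the 6 had the same direction in all 3 pairs, against 39.9%. Without TMM these counts were 1 of 6, miR-151-5p, against 5.36%, and 3 of 6, against 39.3%. Of the precursors 1 of 3, miR-151, had an unadjusted P-value below 0.05 for its 5p/3p ratio, against 3.61% of the 83, and again 1 of 3 with the block, against 12.0%. In limma none of the 83 had an adjusted P-value below 0.05, and 3 had an unadjusted one, 10 with the block. The groups did not overlap for 1 of the 3, against 6.02%, and 2 of the 3 changed the same way in all pairs, against 38.6%. These calls come from the contrast that was known when the family was put together, and nothing is read from their counts. In the intronic comparison list 2 of 48 arms were lower and 1 higher at the unadjusted threshold, and the median log2 fold change was -0.0092, against -0.0015 for all 336.

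The arms of a precursor did not follow the same pattern over the 6 samples, as described by Pearson's r of log2 normalized RPM. These correlations rest on 6 libraries that share conditions and replicate numbers and are given as a description. Between the arms r was -0.62 for miR-151, 0.15 for miR-28 and 0.24 for miR-708. The 3p arms of miR-28 and miR-708 had an r of 0.76 and the 5p arms, which share the seed, one of 0.54. Among all 336 miRNAs, miR-708-3p was most alike to miR-598-3p (r = 0.997), miR-1843a-5p (0.996) and miR-3068-3p (0.991). MiR-151-5p was most alike to miR-551b-3p (0.956), the endothelial marker miR-126a-5p (0.952) and miR-195-5p (0.911), and miR-151-3p to miR-296-3p (0.983), miR-17-2-3p (0.969) and miR-342-5p (0.940). For miR-28-3p the nearest were miR-322-5p (0.983), miR-542-3p (0.963) and miR-34c-5p (0.960), and for miR-28-5p they were miR-325-3p (0.892), miR-411-3p (0.886) and miR-135a-3p (0.876). MiR-708-5p was most alike to miR-137-3p (0.974), miR-6321 (0.929) and miR-18a-5p (0.925). None of the 6 members was thus among the 3 nearest of another.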

How the data were processed

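Small RNA libraries of 3 control and 3 BDNF samples were analysed, with group and replicate number taken from the sample titles. Reads were cleared by the authors of adapter sequence, low quality (Fastx-Toolkit) and very short inserts, and Miraligner with its defaults then matched them to the mature rat entries of miRBase v21. The study's methods call the samples biological replicates. The deposited values are raw read counts per mature miRNA, summed over isomiRs and not normalized. Counts are not corrected for differences in ligation or amplification between sequences. How multiply matching reads were treated is not given in the sources used here.

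Counts were tested with edgeR 4.0.16 in R 4.3.3 (TMM, library size from all counts, quasi-likelihood test) over the 336 miRNAs that averaged 10 RPM or more in either group, and P-values were Benjamini-Hochberg adjusted over all of them. Log2 5p/3p count ratios of 83 precursors were fitted with limma 3.58.1, moderated along the log2 count of the less abundant arm. The replicate number was tested as a factor beside condition, and no libraries of the same condition agreed within sampling noise (chi-square per degree of freedom of at least 220.3). Whether samples of a number came from the same culture is not stated in the labels. All 3 pairs were correlated above 0.1, so values with the number as a block are given where calls change. Standard errors of edgeR fold changes are their size divided by the square root of F. Both fits were tested on simulated data. For BDNF these held no differences between replicate numbers, unlike the libraries, so fits without the block were not tested under such differences. The members and lists were chosen with earlier results of these data known. Named miRNAs are the 6 members, the 3 most correlated miRNAs of each, miRNAs sharing a seed with a member, and the markers. DESeq2 1.42.0, other normalizations, filters, a pseudocount and leaving out single samples served as alternatives.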

Additional observations from a re-analysis of the deposited data

How the results depend on the processing

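The log2 fold change of miR-151-5p stayed between -0.43 and -0.27 and that of miR-151-3p between 0.11 and 0.19. The change in log2 5p/3p of miR-151 stayed between -0.55 and -0.43. These ranges cover the alternatives in which each was tested. With a filter of 100 RPM, miR-151-5p and the ratio of miR-151 were not. The replicate block changed no direction or call of a member. It raised the number of miRNAs called between conditions from 10 to 69 and that of precursors from 3 to 10. The count of miRNAs was 6 with library size alone, 5 with a filter of 100 RPM, and 3 to 32 when single samples were left out. The count of precursors was 6 with both arms at 1 RPM, 0 with both arms at 100 RPM, where miR-151 and miR-28 were no longer tested, and 1 to 8 when single samples were left out. Between replicate numbers, 162 miRNAs were called, 94 with a filter of 100 RPM and 66 to 182 without single samples, the lowest count being reached without control replicate 3 and also without BDNF replicate 3. For precursors the 14 calls became 6 with both arms at 100 RPM and 0 to 24 without single samples, with 0 when either sample of number 1 was left out, 2 without control replicate 3 and 1 without BDNF replicate 3. MiR-708-3p kept an adjusted P-value of at most 0.016 for the replicate number in all 11 alternatives (edgeR and DESeq2). Single samples were left out in fits without the block. The log2 fold change then ranged from -0.24 to 0.040 for miR-28-3p and from -0.14 to 0.017 for miR-708-5p. For miR-708-3p it ranged from -0.053 to 0.42, with -0.026 without BDNF replicate 1. The change in log2 5p/3p of miR-28 ranged from -0.27 to 0.087, with 0.030 without control replicate 3. The cause was not tested. Leaving miR-9a-5p, the most abundant miRNA, out of the library total raised all mean RPM values of the members, for example from 58.2 to 81.7 for miR-151-5p in control.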

Other observations

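The RefSeq table of GRCr8 places a further miRNA gene, Mir151b (rno-mir-3586), over the miR-151 gene. Its arms were nearly absent from these libraries, with 2 to 9 reads of miR-3586-3p per sample and a single read of miR-3586-5p, in control replicate 2.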
